A study of Saccharomyces cerevisiae with 16 samples.

Results

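The genes described here code for amino acid synthesis in Saccharomyces cerevisiae, apart from the sulfur amino acids. They were chosen by name: a spot had to carry a single gene symbol that starts with a pathway prefix such as ARG, LEU, ILV or TRP, or is GLN1, and otherwise holds digits only. The rule itself used no measured value, and it found 36 genes of the 3127 tested. Of these, 8 carry arginine names, 8 aromatic names, 7 branched-chain names and 4 the names of glutamate and asparagine genes. Lysine has 3, serine 2, the threonine and homoserine branch 2, and histidine and proline 1 each. In terms of function, 32 code for enzymes of synthesis, among them the enzyme-activating Lys5. GDH2 codes for an enzyme that breaks glutamate down, ARG80 for a transcription factor and ORT1 for a mitochondrial carrier, and no role is given here for ARO5 (YGL117W).

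The treated RNA came from the wild-type strain CDY59, kept for 1, 2, 4 or 6 h with 200 mM hydroxyurea in the rich medium YPD. The untreated RNA on the same 2-colour slides came from CDY59 at an optical density of 0.5, before any drug. Hydroxyurea inhibits ribonucleotide reductase, the enzyme that makes the precursors of DNA. A pair of slides served each time. They are called the channel-1 and the channel-2 slide after the channel that held the treated RNA, and the 2 readings of each of the 8 slides were averaged. The untreated cells were taken before the drug and not at the same hour, so drug and time in culture cannot be told apart. All values are log ratios of treated over untreated RNA, taken as log2, with the median gene of each reading set to 0. The labels name no numerator. The sign was set so that RNR2 and RNR4, textbook hydroxyurea-induced genes, were positive (2.69 and 2.55 in the mean of the 4 times), so the direction is likely and not established. Errors are standard errors of the limma model, and a gene passed where its adjusted p, over all 3127 genes, was under 0.05. Whether a pair of slides came from separate cultures is not given in the labels, so the p-values measure the spread between slides, which may be technical.

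Yeast makes all the amino acids of its proteins, many of them from glycolytic and citric acid cycle intermediates. Their nitrogen can come from ammonium, which enters through glutamate and glutamine. Many of the genes answer to the activator Gcn4, whose translation rises when uncharged tRNA accumulates, and single branches have their own activators, such as Leu3 for leucine and Lys14 for lysine. In rich medium the cells also take amino acids up through permeases. GCN4 itself was not analysed here.

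In the mean over the 4 times, 8 of the 36 genes fell and 0 rose by limma. The genes that fell were GLT1, PRO2, HOM2, ARO2, BAT1, LEU4, LEU9 and LYS2, at 0.560 to 0.718 of the untreated level if the base is 2. They stood for 22.2% of the genes described here, against 11.8% of all genes tested that fell and 6.97% that rose. The median of the 36 genes was -0.20, beside 0.01 over all genes. Below 0 lay 27 of the 36, against 1508 of all 3127 genes. The values of the 36 ran from -0.94 for ILV3 to 0.27 for ARG1. Arginine genes spread around 0, with a median of -0.01 and 0 of 8 passing, while the median was -0.58 over the 7 branched-chain genes, of which 3 fell. The difference between the pathways was not tested.

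**Figure D1:**
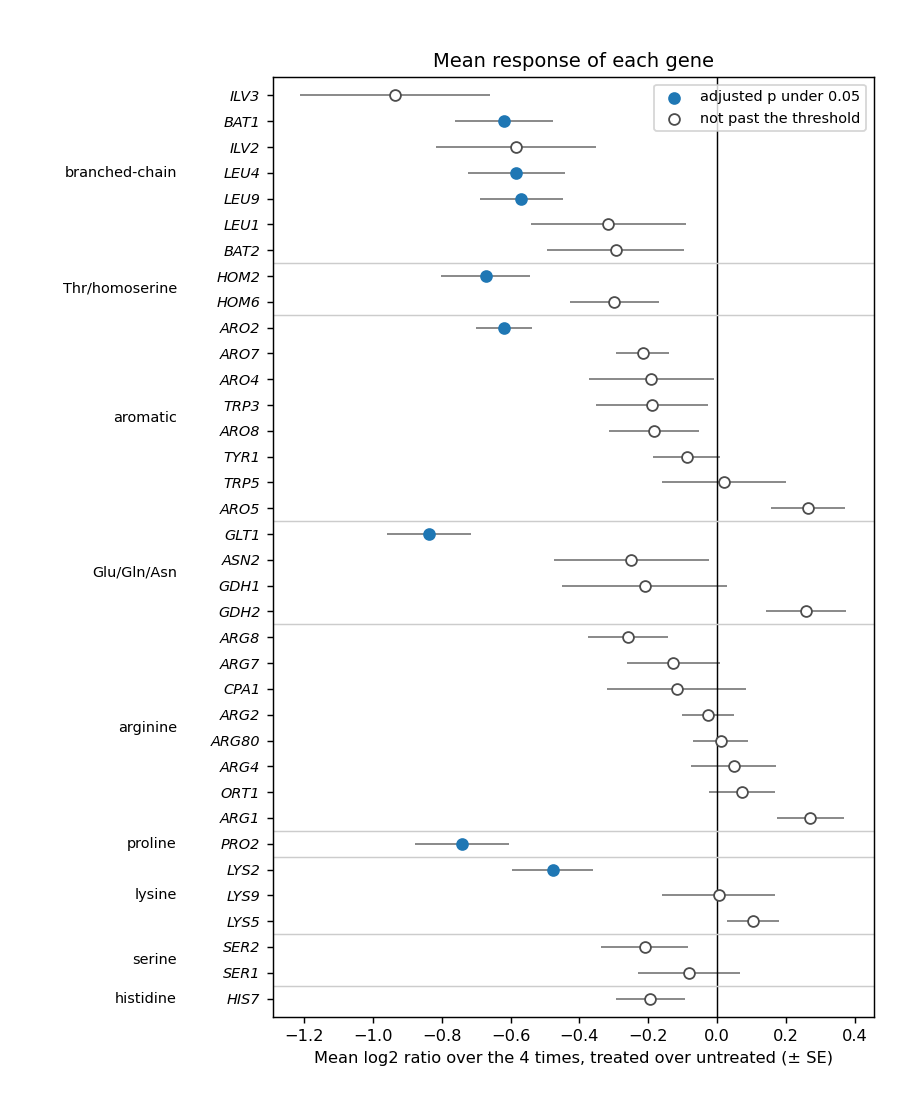
Mean log2 ratio of each gene over the 4 times, treated over untreated (horizontal axis), with the standard error of the limma model, grouped by pathway (vertical axis). Filled points mark the 8 genes that passed, all below 0; the arginine genes lie between -0.26 and 0.27 and the branched-chain genes between -0.94 and -0.29.

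PRO2 kept its call in 18 of 18 other settings, ARO2 and GLT1 in 17 and HOM2 in 16. LEU9, BAT1, LEU4 and LYS2 kept it in 12, 11, 11 and 10. Of these 18, the median of spots and the removal of discordant spots could not move the ratios of these 8 genes, and the fit on the 4 h and 6 h slides was added after seeing the data. With the slides of each time averaged, only BAT1 and PRO2 of the 8 kept the call. There the limma adjusted p was 0.0656 for ARO2, 0.0848 for GLT1 and 0.101 for HOM2. With single slides left out, the count moved together with that over all genes in the fits given next. In other such fits it did not. Of the 36, 4 fell without the 1 h channel-1 slide (178 of all genes), 4 without the 4 h channel-2 slide (206) and 3 without the 6 h channel-2 slide (150). Omitting the 2 h channel-2 slide left 14 that fell and 1 that rose, beside 540 and 274 of all genes. On the ratios as deposited, where the median gene stood at 0.20, 9 fell and 3 rose (8.33% of the 36), against 7.23% and 26.1% of all genes.

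The branched-chain pathway makes isoleucine, valine and leucine, mostly in mitochondria. Slide values are given throughout in the order of the times, at each time the channel-1 slide before the channel-2 slide. LEU4 (YNL104C), the main isopropylmalate synthase and entry to the leucine branch, had 0.04, 0.10, 0.55, -0.77, -0.14, -1.90, -0.80 and -1.73. It was thus near or above 0 at 1 h and below 0 on all 4 late slides. LEU9 (YOR108W), the second synthase of that step, had -0.40, -0.53, -0.20, 0.79, -0.84, -1.27, -1.0 and -1.10, above 0 on a single slide. BAT1 (YHR208W), the mitochondrial aminotransferase that completes all 3 amino acids, had -0.96, -0.74, -0.74, 0.66, -0.34, -0.88, -1.08 and -0.88. The exception for BAT1 was again the 2 h channel-2 slide. Their means were -0.58 ± 0.14 for LEU4 (limma adjusted p = 0.0246), -0.57 ± 0.12 for LEU9 (adjusted p = 0.0155) and -0.62 ± 0.14 for BAT1 (adjusted p = 0.0216).

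These 3 calls rested on most of the slides together and on the processing. All 3 missed the threshold with the weaker-titled (faible) reading alone, and BAT1 and LEU4 also with no orientation coefficient. LEU4 and LEU9 missed it with the slides of each time averaged. Over the 18 other settings the limma adjusted p reached 0.191 for LEU4 and 0.154 for LEU9. BAT1 missed the threshold when either 1 h slide, either 6 h slide or the 4 h channel-2 slide was left out (adjusted p from 0.0538 to 0.0888, means from -0.64 to -0.48). LEU4 missed it without either 6 h slide, the 1 h channel-1 slide or the 4 h channel-2 slide (adjusted p from 0.0678 to 0.0875, means from -0.59 to -0.41). LEU9 missed it without either 1 h slide or without the 4 h or 6 h channel-2 slide (adjusted p from 0.0543 to 0.0757, means from -0.61 to -0.48).

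The other branched-chain genes did not pass in the mean. ILV3 (YJR016C), the iron-sulfur dihydroxyacid dehydratase shared by the isoleucine and valine routes, had the lowest mean of the 36 genes. Its slide values were -2.65, 1.37, -2.18, 1.34, -1.98, -0.21, -1.72 and -1.46, a mean of -0.94 ± 0.28 (limma adjusted p = 0.0505). At 1 h and 2 h it was far below 0 on the channel-1 slide and above 0 on the channel-2 slide, while both slides agreed in sign at 4 h and 6 h. It passed in 8 of 17 other settings, among them without the 2 h channel-2 slide (-1.13, adjusted p = 0.0258). ILV3 was also the gene of the 36 whose 2 readings of a slide differed by more than 1, on the 1 h channel-2 slide.

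ILV2 (YMR108W), the catalytic subunit of acetolactate synthase, had -1.89, 0.50, 0.18, 0.10, -0.36, -1.18, -0.86 and -1.14, with a mean of -0.58 ± 0.23 (adjusted p = 0.124). LEU1 (YGL009C), isopropylmalate isomerase and also an iron-sulfur enzyme, averaged -0.32 ± 0.22 over slides that ranged from -2.28 to 2.87. BAT2 (YJR148W), the cytosolic counterpart of BAT1, averaged -0.29 ± 0.20 over slides from -1.70 to 1.54. BAT1 and BAT2 were close to each other at 6 h, at -0.98 ± 0.29 and -1.09 ± 0.40. All 7 branched-chain genes were below 0 on both slides at 6 h, and 6 of the 7 were so at 4 h, with LEU1 at -0.74 and 0.26. Of all genes, 33.3% were below 0 on both slides at 6 h and 32.2% at 4 h.

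**Figure D2:**
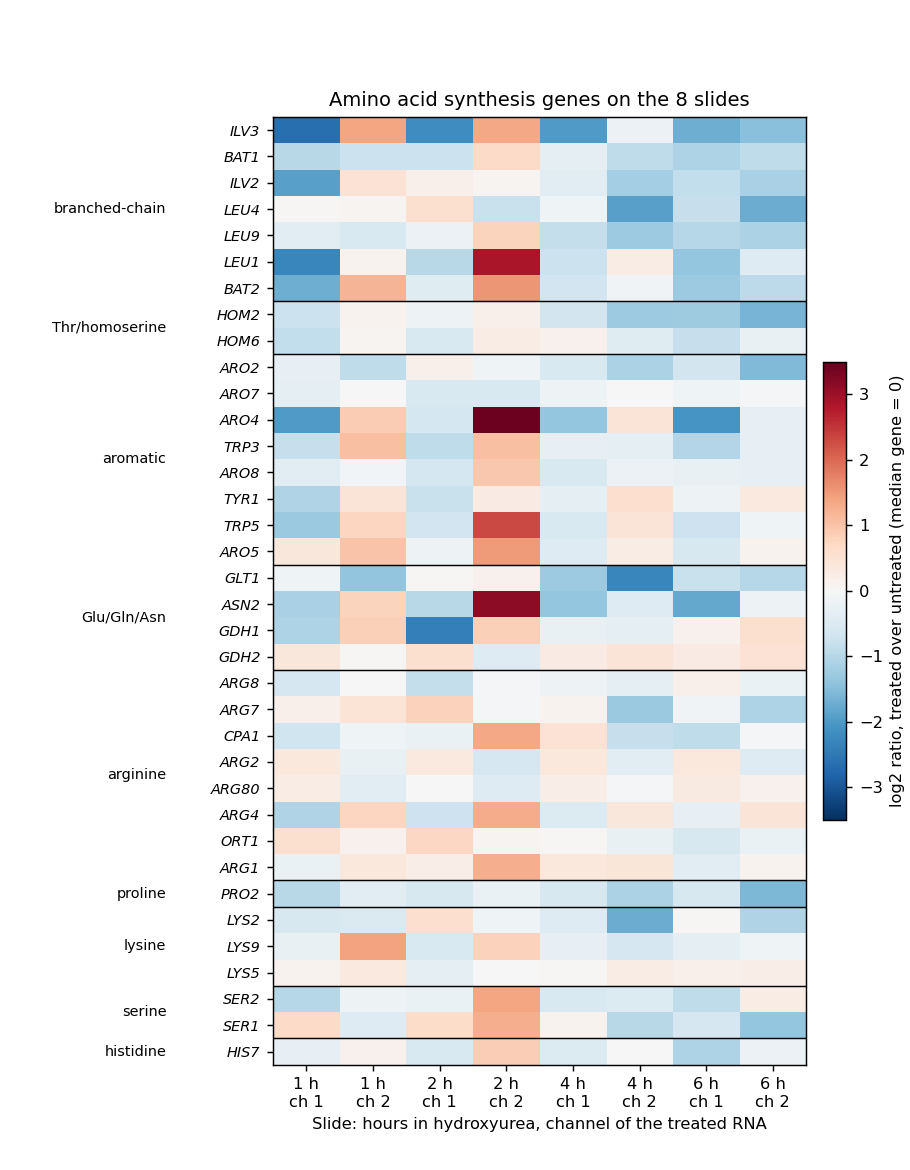
Log2 ratio of treated over untreated RNA of the 36 genes (rows, grouped by pathway) on the 8 slides (columns, by hours and by the channel of the treated RNA), with 0 as the median gene of a reading. Blue cells are below 0 and red cells above; the 2 h channel-2 slide holds the highest values, up to 3.44 for ARO4.

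Threonine, isoleucine and methionine share the steps from aspartate to homoserine. HOM2 (YDR158W), aspartate semialdehyde dehydrogenase, had -0.75, 0.12, -0.17, 0.19, -0.64, -1.26, -1.24 and -1.63. It was close to 0 on 3 of the early slides and at -0.64 or lower on every late slide. Its mean was -0.67 ± 0.13 (limma adjusted p = 0.0103), and without the 6 h channel-2 slide it was -0.60 (adjusted p = 0.0564). HOM6 (YJR139C), the homoserine dehydrogenase of the following step, ranged from -0.86 to 0.26 and averaged -0.30 ± 0.13 (adjusted p = 0.152).

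The aromatic amino acids come from chorismate, the end product of the shikimate pathway. ARO2 (YGL148W), chorismate synthase, had -0.28, -0.90, 0.18, -0.14, -0.52, -1.12, -0.64 and -1.54, below 0 on 7 of 8 slides. It fell by 0.62 ± 0.08 in the mean (limma adjusted p = 0.00207). ARO2 was the 1 gene of the 8 with an aromatic name that passed, while 7 of the 8 lay below 0 at 4 h and 7 at 6 h. Of all 3127 genes, 1591 lay below 0 at 4 h and 1600 at 6 h. The DAHP synthase gene ARO4 (YBR249C), at the entry to the pathway, had -1.98, 0.89, -0.62, 3.44, -1.36, 0.45, -2.06 and -0.30. Its sign at 1 h, 2 h and 4 h followed the channel that held the treated RNA, and its mean was -0.19 ± 0.18.

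Downstream of chorismate, the tryptophan genes TRP3 (YKL211C) and TRP5 (YGL026C) averaged -0.19 ± 0.16 and 0.02 ± 0.18. TRP5 codes for tryptophan synthase and ranged from -1.30 to 2.31 between slides. The tyrosine gene TYR1 (YBR166C), prephenate dehydrogenase, averaged -0.09 ± 0.10, and the chorismate mutase gene ARO7 (YPR060C) averaged -0.22 ± 0.08 (adjusted p = 0.0936). ARO5 was at 0.26 ± 0.11 (adjusted p = 0.13), and passed as higher on the ratios as deposited and without the 2 h channel-1 slide. At 1 h it had the highest value of the 36 genes, 0.705 ± 0.214 (limma adjusted p = 0.226), with both slides above 0. The aminotransferase gene ARO8 (YGL202W) averaged -0.18 ± 0.13 over 2 spots. These spots had means of -0.23 and -0.14 but differed by slide, with 1.51 and 0.37 on the 2 h channel-2 slide. The accessions listed for them are not all the same.

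Glutamate and glutamine carry nitrogen into all the other amino acids. GLT1 (YDL171C), the iron-sulfur glutamate synthase, had -0.14, -1.38, 0.04, 0.14, -1.27, -2.28, -0.78 and -1.0. Both 2 h slides were just above 0, and all 4 late slides were at -0.78 or lower. The mean of GLT1 fell by 0.84 ± 0.12 (limma adjusted p = 0.00332), the lowest value among the 8 genes that passed. GDH1 (YOR375C), the NADP-dependent glutamate dehydrogenase that makes glutamate from ammonium, had -1.08, 0.84, -2.39, 0.83, -0.27, -0.31, 0.14 and 0.56. That series averaged -0.21 ± 0.24 with both slides above 0 at 6 h. GDH2 (YDL215C), which runs the reaction toward breakdown, was above 0 on 7 of 8 slides and averaged 0.26 ± 0.12 (adjusted p = 0.16). It passed as higher on the ratios as deposited and in the fit using no slide of 1 h or 2 h. GDH2 was also the gene that rose when the 2 h channel-2 slide was omitted. The asparagine synthetase gene ASN2 (YGR124W) had -1.14, 0.78, -0.98, 3.12, -1.36, -0.46, -1.78 and -0.18, with a mean of -0.25 ± 0.23.

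Proline is made from glutamate. PRO2 (YOR323C), glutamyl phosphate reductase, had -0.96, -0.37, -0.56, -0.23, -0.56, -1.12, -0.56 and -1.58. It was the 1 gene of the 36 below 0 on all 8 slides (2.78%, against 4.57% of all genes). PRO2 fell by 0.74 ± 0.14 in the mean (limma adjusted p = 0.0091), to 0.598 of the untreated level if the base is 2.

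Arginine also starts from glutamate, through ornithine, and none (0) of its 8 genes passed in the mean by limma. The unadjusted p was under 0.05 for 1 of them. That gene was ARG1 (YOL058W), argininosuccinate synthetase, with -0.22, 0.36, 0.22, 1.27, 0.36, 0.42, -0.36 and 0.12. It had the highest mean of the 36 genes, 0.27 ± 0.10 (adjusted p = 0.0925), and passed without the 2 h channel-1 slide and on the ratios as deposited. The following enzyme gene ARG4 (YHR018C), argininosuccinate lyase, averaged 0.05 ± 0.12, with -0.28 to -1.05 on the channel-1 slides and 0.40 to 1.30 on the channel-2 slides. The ornithine branch lay on the other side of 0 or near it. ARG8 (YOL140W), acetylornithine aminotransferase, averaged -0.26 ± 0.12, ARG7 (YMR062C), ornithine acetyltransferase, -0.13 ± 0.14, and ARG2 (YJL071W), acetylglutamate synthase, -0.03 ± 0.08. CPA1 (YOR303W), a subunit of carbamoyl phosphate synthetase, averaged -0.12 ± 0.20. The regulator gene ARG80 (YMR042W) and the carrier gene ORT1 (YOR130C) were at 0.01 ± 0.08 and 0.07 ± 0.10.

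Among the lysine genes, LYS2 (YBR115C), aminoadipate reductase, had -0.56, -0.50, 0.59, -0.15, -0.44, -1.74, 0.04 and -1.06. It was the gene with the smallest fall among those that passed, -0.48 ± 0.12 (limma adjusted p = 0.0267). LYS2 lost its call on the ratios as deposited, with the faible reading, with no orientation coefficient and with averaged slides. The adjusted p reached 0.186. LYS2 missed the threshold without the 1 h or 2 h channel-1 slide and also without the 4 h or 6 h channel-2 slide (means from -0.47 to -0.34, adjusted p from 0.0523 to 0.131). LYS5 (YGL154C), which activates the Lys2 protein, averaged 0.10 ± 0.08, and the saccharopine dehydrogenase gene LYS9 (YNR050C) averaged 0.00 ± 0.16.

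The serine genes follow the glycolytic intermediate phosphoglycerate. SER1 (YOR184W), phosphoserine aminotransferase, had 0.67, -0.44, 0.64, 1.28, 0.12, -0.98, -0.58 and -1.36, and SER2 (YGR208W), phosphoserine phosphatase, had -0.99, -0.19, -0.24, 1.38, -0.52, -0.48, -0.90 and 0.26. Their means, -0.08 ± 0.15 and -0.21 ± 0.13, did not pass (adjusted p = 0.714 and adjusted p = 0.265). HIS7 (YBR248C), which makes the imidazole ring of histidine, had -0.28, 0.14, -0.52, 0.85, -0.48, 0.01, -1.08 and -0.20, a mean of -0.19 ± 0.10 (adjusted p = 0.209). HIS7 and ARO4 are the 1 pair of neighbours in the reference gene order among the 36, and their signs matched on 8 of 8 slides. The values of both also differed with the channel of the treated RNA. The limma coefficient for it was -0.39 for HIS7 (adjusted p = 0.0374) and -1.31 for ARO4 (adjusted p = 0.0214). Its part in the match was not tested.

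Over the 4 times, the median of the 36 genes was -0.25, 0.14, -0.33 and -0.52 in the order of the times, against medians between -0.01 and 0.01 for all genes. At 1 h and 2 h, 0 of the 36 passed by limma (0.799% and 4.19% of all genes did). At an unadjusted p under 0.05 there were 7 at 1 h and 6 at 2 h, which is 19.4% and 16.7%, against 12.1% and 19.7% of all genes. In the same order, both slides were below 0 for 9, 3, 18 and 24 genes. As shares these were 25.0%, 8.33%, 50.0% and 66.7%, against 21.2%, 19.9%, 32.2% and 33.3% of all genes. Both slides were above 0 for 6, 5, 3 and 4 of the 36, against 707, 665, 996 and 1053 of all 3127 genes. At 2 h the median of the 36 was -0.37 on the channel-1 slide and 0.72 on the channel-2 slide. All 4 slides of 4 h and 6 h were below 0 for 14 genes, or 38.9%, against 24.2% of all genes.

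**Figure D3:**
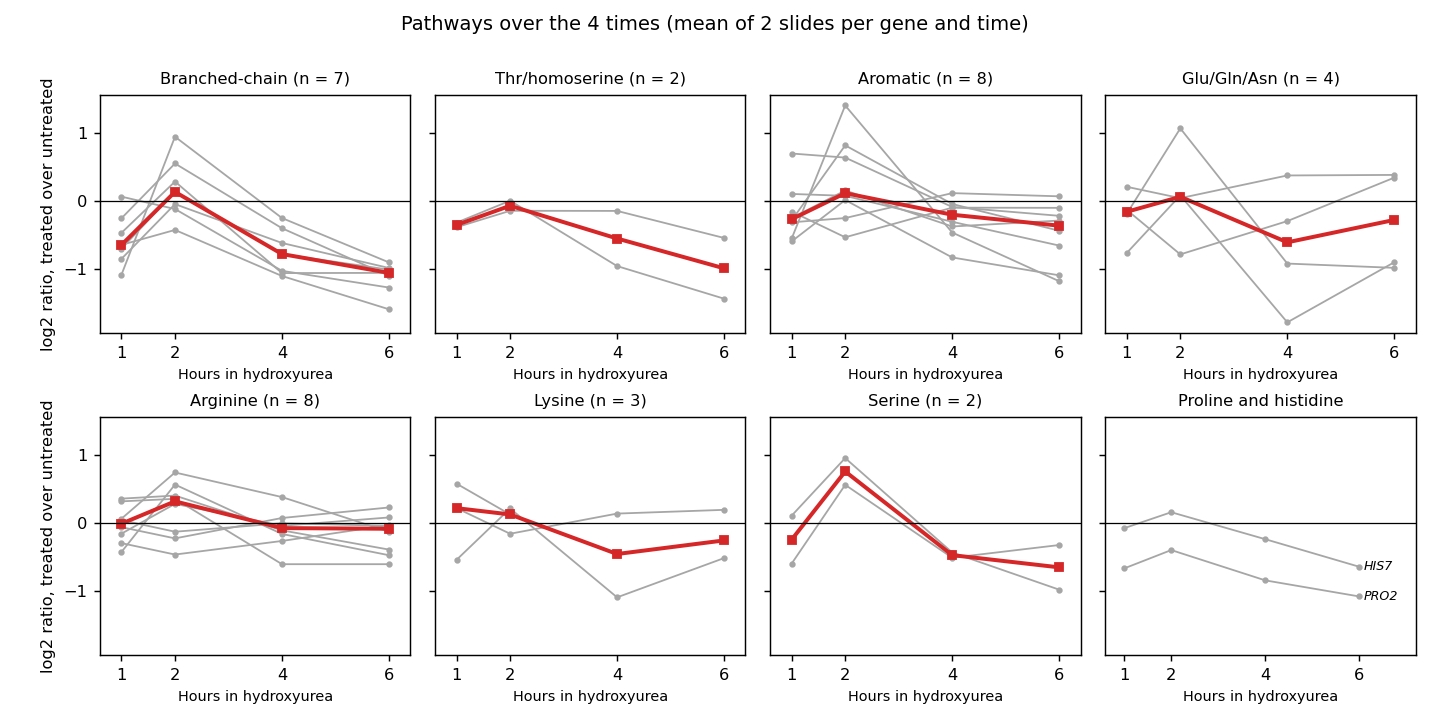
Log2 ratio of treated over untreated RNA (vertical axis) against hours in hydroxyurea (horizontal axis) for each gene (grey, mean of 2 slides) and the pathway median (red squares). The branched-chain median goes through -0.64, 0.14, -0.78 and -1.05, and the arginine median through 0.00, 0.33, -0.07 and -0.08.

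By pathway, the branched-chain median was -0.64, 0.14, -0.78 and -1.05. The pair of threonine and homoserine genes had medians of -0.35, -0.06, -0.55 and -0.98. Aromatic genes stood at -0.26, 0.12, -0.20 and -0.36, and the glutamate and asparagine genes at -0.15, 0.07, -0.60 and -0.27. The arginine median was 0.00, 0.33, -0.07 and -0.08, and that of the serine pair -0.24, 0.77, -0.47 and -0.65. Lysine genes had 0.23, 0.13, -0.45 and -0.25. For all these pathways with over 1 gene except lysine, the highest of the 4 medians was the one at 2 h. In several of them the channel-1 and channel-2 slides of 2 h had medians of opposite sign. These were -0.425 and 0.79 for branched-chain and -0.617 and 0.996 for aromatic genes. They were -0.47 and 0.485 for glutamate and asparagine, and -0.355 and 0.228 for threonine and homoserine. Arginine had 0.12 and 0.013, and serine 0.2 and 1.33. On the ratios as deposited, where the median gene stood at 0.21, -0.21, 0.46 and 0.29, the sign of 6, 9, 17 and 7 of the 36 genes turned at the 4 times.

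At 4 h, GLT1 was at -1.78 ± 0.24 (limma adjusted p = 0.0138) and ARO2 at -0.82 ± 0.16 (adjusted p = 0.0408). These were 2 of the 36 genes (5.56%), against 2.21% of all genes that fell at that time. LYS2 was at -1.09 ± 0.24 and LEU9 at -1.06 ± 0.24 (adjusted p = 0.0545 and adjusted p = 0.0644). At 6 h, 4 of the 36 fell (11.1%, against 4.35% of all genes). HOM2 had -1.43 ± 0.26 (adjusted p = 0.0183), LEU4 -1.27 ± 0.28 (adjusted p = 0.0408), ARO2 -1.09 ± 0.16 (adjusted p = 0.0103) and LEU9 -1.05 ± 0.24 (adjusted p = 0.046). ILV3 was at -1.59 ± 0.55, the lowest value at that time, and PRO2 at -1.07 ± 0.27, neither past the threshold (adjusted p = 0.132 and adjusted p = 0.0608).

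With 1 slide of a time left out, that time rested on 1 slide, assumed to vary like the other times, and few genes of any kind passed. Without the channel-1 or the channel-2 slide, 0 and 6 of all 3127 genes passed at 4 h, and 13 and 0 at 6 h. None (0) of the 36 was among them by limma (16 and 4 at an unadjusted p under 0.05 at 4 h, 10 and 6 at 6 h). ARO2 at 4 h missed the threshold without any 1 of the 1 h and 6 h slides (adjusted p from 0.0613 to 0.0748), and LEU9 at 6 h without either 1 h slide (adjusted p = 0.0757). Without either 2 h slide, 5 of the 36 fell at 4 h and 11 at 6 h, while the counts over all genes were 190 and 285, against 69 and 136 with all slides. On the 4 h and 6 h slides alone, a fit added after the 1 h and 2 h slides were seen to agree poorly, 21 genes fell and 1 rose. Those 21 were 58.3% of the 36, against 25.7% of all genes that fell in that fit, which had 1 residual degree of freedom per gene.

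The late response was compared with the early one as the mean of 4 h and 6 h minus the mean of 1 h and 2 h. By limma 0 of the 36 genes passed, as did 0% of all genes. At an unadjusted p under 0.05, 13 of the 36 were lower late (36.1%, against 12.8% of all genes) and 0 were higher. SER1 averaged -0.70 late and 0.54 early, a difference of -1.24 ± 0.30 (adjusted p = 0.136). ASN2 averaged -0.95 late and 0.45 early, and ARO4 -0.82 late and 0.43 early. LEU4 and HOM2 averaged -1.15 and -1.19 late, against -0.02 and -0.15 early. Without the 2 h channel-1 slide, which leaves 2 h to its channel-2 slide, 6 of the 36 passed as lower late, beside 132 of all genes: ASN2, ARO4, SER1, LEU9, GLT1 and ARO5. Without the 2 h channel-2 slide 0 of the 36 passed, beside 3 of all genes.

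The difference of 6 h from 1 h passed for 0 of the 36 genes and 0% of all genes by limma, with 6 of the 36 at an unadjusted p under 0.05 (16.7%, against 7.58%). For any difference among the 4 times the counts were also 0 and 0%, with 12 at an unadjusted p under 0.05 (33.3%, against 12.1%). In this last test 5 of the 36 and 58 of all genes passed without the 2 h channel-1 slide, and 0 of the 36 and 3 of all genes without the 2 h channel-2 slide.

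Channel orientation moved with many of these values. Of the 36 genes, 15 had a coefficient for orientation that passed by limma (41.7%, against 17.3% of all genes). Over the 36 genes the median was -0.53 for the mean of the 4 channel-1 slides and 0.09 for that of the 4 channel-2 slides. For all genes these were -0.02 and 0.04. ARO4 averaged -1.50 in the first orientation and 1.12 in the other, ILV3 -2.13 and 0.26, LEU1 -1.34 and 0.70, ASN2 -1.31 and 0.81, and TRP5 -0.81 and 0.85. ARO2 and LEU4, among the genes that fell, went the other way, with -0.31 and -0.93 for ARO2 and -0.09 and -1.07 for LEU4. The coefficient did not pass for the other 6 genes that fell. PRO2 had -0.66 and -0.83 in the 2 orientations, HOM2 -0.70 and -0.64, LEU9 -0.61 and -0.53, and BAT1 -0.78 and -0.46. LYS2 and GLT1 lay further apart, at -0.10 and -0.86 for LYS2 (adjusted p of the limma coefficient = 0.058) and -0.54 and -1.13 for GLT1 (adjusted p = 0.121).

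**Figure D4:**
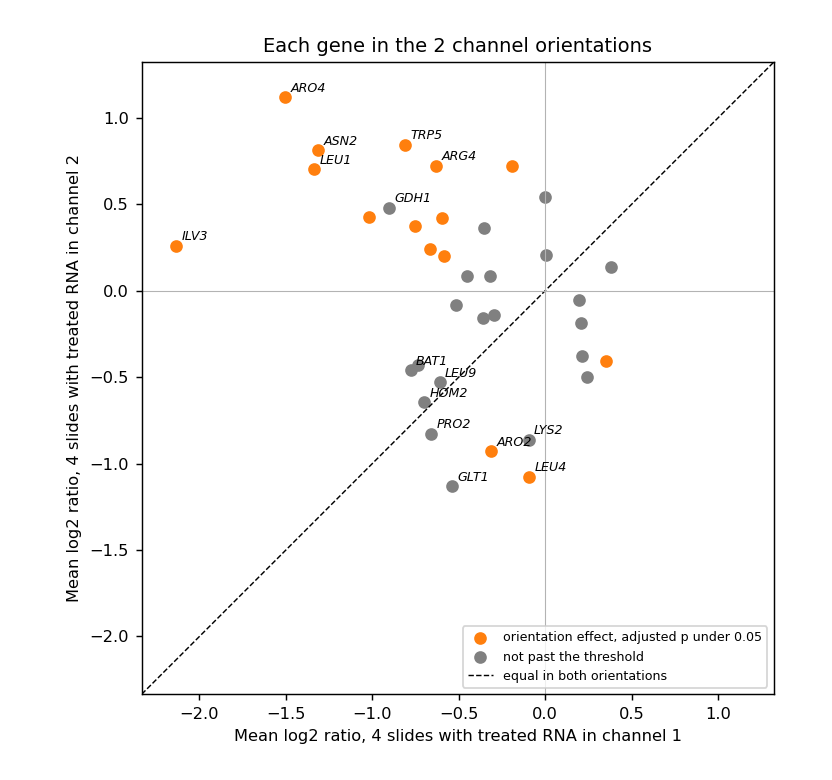
Each of the 36 genes by its mean log2 ratio on the 4 channel-1 slides, named for the channel of the treated RNA (horizontal axis), and on the 4 channel-2 slides (vertical axis); the dashed line marks equal values. Orange points are the 15 genes whose orientation coefficient passed, and the genes that fell in the mean lie at lower left.

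The slides of a time, over all 3127 genes, correlated across genes, which are not independent replicates, with r = -0.08, -0.03, 0.50 and 0.58 in the order of the times. Slides of different times had a median r of 0.564 over the 12 pairs whose slides shared an orientation, whichever it was. It was 0.127 over the 12 pairs in opposite orientations. The part of channel orientation in the results at 1 h and 2 h was not tested beyond the coefficient in the model. The median standard error of the mean was 0.13 for the 36 genes and 0.09 for all genes.

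Neighbouring steps of metabolism were followed in lists drawn up with earlier results of these data known. For all the lists, the values over all genes in the mean are the same: by limma 11.8% fell and 6.97% rose. Of all 3127 genes, 1508 lay below 0, and 1037 had an unadjusted p under 0.05 by limma. In general control, the translation machinery that governs GCN4, 1 of 7 measured genes fell in the mean and 0 rose. It was SUI3, a subunit of initiation factor 2, at -0.77 ± 0.09 (limma adjusted p = 0.000988). All 7 lay below 0, with a median of -0.29. Of 11 amino acid permease genes, 2 rose and 1 fell, around a median of 0.03. GAP1, the general permease, rose by 0.49 ± 0.09 (adjusted p = 0.00902) and by 1.06 ± 0.18 at 6 h (adjusted p = 0.0158). AGP2 rose by 0.33 ± 0.08 (adjusted p = 0.0255), and TAT1, a permease for aromatic and branched-chain amino acids, was at -0.42 ± 0.08 (adjusted p = 0.0102).

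Of 4 genes listed for amino acid breakdown, which include the regulator gene UGA3, 2 rose. UGA1, a transaminase of the GABA route, rose by 0.40 ± 0.10 (limma adjusted p = 0.0258). The proline oxidase gene PUT1 rose by 0.29 ± 0.08 (adjusted p = 0.0375). Alanine, aspartate and glycine synthesis had 2 of 3 genes lower. SHM2, the cytosolic serine hydroxymethyltransferase, was at -0.91 ± 0.13 (adjusted p = 0.00286) and the alanine transaminase gene ALT1 at -0.63 ± 0.08 (adjusted p = 0.00166). Of 9 genes that supply carbon skeletons, 2 rose, the citrate synthase gene CIT1 by 0.43 ± 0.10 (adjusted p = 0.0196) and IDH2, a subunit of isocitrate dehydrogenase, by 0.31 ± 0.09 (adjusted p = 0.0406).

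Purine synthesis shares the precursor PRPP with histidine synthesis, and 4 of the 8 genes listed for it fell around a median of -0.35. The 8 include the regulator genes BAS1 and PHO2, at -0.22 and -0.02, neither past the threshold. ADE6 was at -1.03 ± 0.09 (limma adjusted p = 0.00027), ADE12 at -0.79 ± 0.13 (adjusted p = 0.0049), ADE2 at -0.37 ± 0.11 (adjusted p = 0.0481) and the folate enzyme gene MTD1 at -0.34 ± 0.08 (adjusted p = 0.0273). Nitrogen and retrograde regulators had 0 of 7 passing in the mean by limma, nor any (0) at an unadjusted p under 0.05, with a median of 0.02 and a range of -0.07 to 0.21. Markers of haploid cells had 1 of 9 higher, the pheromone gene MF(ALPHA)1 at 0.92, and 2 lower, AGA1 at -0.59 and FAR1 at -0.88. The second alpha-factor gene, MF(ALPHA)2, was at 0.92 at 2 h (limma adjusted p = 0.0372) and -1.36 at 6 h (adjusted p = 0.00803). Of the 5 meiosis and sporulation markers 0 passed (3 at an unadjusted p under 0.05), around a median of 0.13. Their part in the values above was not tested.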

How the data were processed

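Total RNA was hybridised to 8 slides, each read 2 times. What was deposited is one log ratio per spot and reading, read here as log2; per the labels, RNA was labelled indirectly, and the base, numerator, background correction and normalization made by the authors are not given in the sources used here. If the logarithm is natural, the changes are larger, and the fractions of the untreated level are lower than printed. Reading medians ran from -1.03 to 0.45, so the median over single-gene spots was subtracted from every reading. Ratios were then turned to treated over untreated, and readings and spots of a gene were averaged. Of 6912 spots, 3344 named 1 gene, 387 several and 3181 none; only the first were used, and 3343 matched the RefSeq gene table of S288C. The 36 genes lay on 37 spots. Channel intensities were not used, so signal over background is unknown and the number of slides limits the precision.

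limma 3.58.1 in R 4.3.3 fitted a coefficient per time and one for channel orientation, with 3 residual and 4.89 prior degrees of freedom, and p-values were adjusted by Benjamini-Hochberg. The genes and lists were chosen with earlier results of these data known. Slide values are given for each gene that passed and for the largest mean of each pathway; ILV2, ARO4, ASN2, GDH1 and SER1, and the marker MF(ALPHA)2, were added after their values were seen. Alternatives were the ratios as deposited, each reading alone, the median of spots, spots with discordant readings left out, quantile normalization, no orientation coefficient, robust moderation, slides of a time averaged, and each slide left out.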

Additional observations from a re-analysis of the deposited data

Results flagged for a closer look

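In 7 of the 36 genes both slides of a later time lay on the other side of 0 from both slides of an earlier time. Such a pattern was seen in 19.4% of the 36 genes and in 22.1% of all genes tested. The pair of times was picked from the values and its difference was not tested; limma's test of any difference among the 4 times passed for none of the 7. SER1 stood at -0.98 at 6 h, against 0.96 at 2 h, a difference of -1.94 (adjusted p = 0.266). GLT1 was at -1.78 at 4 h, against 0.09 at 2 h, a difference of -1.87 (adjusted p = 0.261). For LEU4 the difference was -1.34, with -1.27 at 6 h and 0.07 at 1 h (adjusted p = 0.329). ILV2 differed by -1.14, with -1.0 at 6 h and 0.14 at 2 h (adjusted p = 0.706). ARG7 differed by -0.92, with -0.60 at 6 h and 0.32 at 1 h (adjusted p = 0.412), and ORT1 by -0.80, with -0.39 at 6 h and 0.41 at 2 h (adjusted p = 0.43). GDH1 was the 1 gene that was higher later, by 0.64, with 0.35 at 6 h and -0.29 at 4 h (adjusted p = 0.754).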

How the results depend on the processing

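The count of genes that passed in the mean was 8, beside 587 of all 3127 genes, and counts over all genes are given in brackets. It was 4 with the weaker-titled (faible) reading alone (392), 5 with no orientation coefficient (255), 3 with the slides of each time averaged (311) and 22 using no slide of 1 h or 2 h (1417), the last chosen after seeing the data. With the slides averaged, the 3 genes were BAT1, ILV3 and PRO2, and 2 of them were among the 8. With 1 slide left out the count ranged from 3 to 15. At 1 h, where the count was 0 (25), the ratios as deposited gave 1 (86) and quantile normalization 3 (168). At 2 h, also 0 (131), they gave 3 (237) and 1 (130). At 4 h, where the count was 2 (88), the faible reading gave 1 (42), the fort reading 5 (167), quantile normalization 8 (324) and the fit with no orientation coefficient 0 (1), with 6 of the 36 at an unadjusted p under 0.05. At 6 h, where it was 4 (188), the ratios as deposited gave 7 (362), faible 1 (109), fort 7 (290), quantile normalization 12 (397), robust moderation 2 (165) and no orientation coefficient 0 (28), with 8 of the 36 at an unadjusted p under 0.05. For late minus early, where limma called 0 (0), the ratios as deposited gave 1 (78) and quantile normalization 3 (64), and for any difference among the times these gave 4 (86) and 1 (8). Leaving out single slides gave 0 to 1 at 1 h, 0 to 6 at 2 h, 0 to 5 at 4 h, 0 to 11 at 6 h, 0 to 6 for late minus early and 0 to 5 for any difference. For the genes that passed, and for ARG1, HIS7, ILV3 and SER2, 235 values under these alternatives kept their side of the threshold, 64 lost a call, 12 gained one and 0 changed sign. The sign was fixed for many of these values. The median of spots, the removal of discordant spots, robust moderation, no orientation coefficient and averaged slides left the ratios as they were. A single-time ratio also stayed the same when a slide of another time was left out. The genes were picked for passing or for the largest mean of their pathway. Genes that did not pass did change sign: in the mean, 6 of the 36 on the ratios as deposited, 3 with quantile normalization, 3 with fort, 1 with faible and 2 to 6 with 1 slide left out. The cause of these changes was not tested. Each ratio paired treated and untreated RNA on the same slide. Slides of different times could not be paired, because the labels give no replicate numbers.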

Other observations

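Among the 3 genes whose products carry iron-sulfur clusters, ILV3, LEU1 and GLT1, the medians were -0.76, 0.09, -1.10 and -0.90 in the order of the times. Only GLT1 of these passed in the mean over the times. The isozyme pair LEU4 and LEU9 stood at -1.27 and -1.05 at 6 h, and at 0.07 and -0.46 at 1 h. At 6 h GDH1 and GDH2, which make and break down glutamate, were at 0.35 and 0.39, while GLT1 was at -0.90, and none of these 3 values passed at that time.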
